A study of Homo sapiens with 6 samples.

Results

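The HSP70 genes encode chaperones that bind and release unfolded stretches of protein in cycles of ATP hydrolysis. The 10 members described here were the rows of the expression table named HSPA8, HSPA1A, HSPA1B, HSPA2, HSPA4, HSPA4L, HSPA5, HSPA9, HSPA13 and HSPA14, out of 24480 gene symbols. They were measured by RNA-seq in LN229, an established human glioblastoma cell line. LACTB, a mitochondrial protein related to bacterial beta-lactamases, had been overexpressed by transduction in 3 libraries, and the other 3 libraries came from LN229 cells transduced with vector. The labels name no further treatment, allele, promoter, selection or clone, and no label ties the 3 libraries of a group to separate cultures. The p-values therefore reflect library-to-library spread, part or all of which may be technical. The study concerned LACTB, lipid synthesis and ERBB3 degradation mediated by Hsc70, the protein product of HSPA8.

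HSP70 proteins work with J-domain proteins, which stimulate their ATPase and bring clients, and with nucleotide exchange factors, which replace ADP by ATP. HSPA8 is the constitutive form of the cytosol, known for uncoating clathrin-coated vesicles and for delivering proteins to lysosomes in chaperone-mediated autophagy. HSPA1A and HSPA1B are the inducible cytosolic forms, driven by the transcription factor HSF1 when proteins unfold. HSPA5 (BiP) serves the endoplasmic reticulum (ER) and HSPA9 (mortalin) the mitochondrial matrix, where it also powers protein import. HSPA4 and HSPA4L belong to the Hsp110 branch, which acts as nucleotide exchange factors for the other members.

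The promoters of HSPA8, HSPA1A, HSPA1B and HSPA5 are shown because these genes stand for the constitutive, inducible and ER forms and differ in the exact motif matches they hold. Each line gives the 250 bases before the RefSeq transcription start (GRCh38.p14), 5′ to 3′ on the gene's strand. Capitals mark exact matches to the heat shock element of 3 units in HSPA8, that of 2 units in HSPA1A and HSPA1B, and the ER stress element in HSPA5. GENCODE begins HSPA8, HSPA1A and HSPA1B upstream of the RefSeq start, so these stretches lie partly or wholly inside its gene models.
HSPA8 (chr11:123062137-123062386, minus strand): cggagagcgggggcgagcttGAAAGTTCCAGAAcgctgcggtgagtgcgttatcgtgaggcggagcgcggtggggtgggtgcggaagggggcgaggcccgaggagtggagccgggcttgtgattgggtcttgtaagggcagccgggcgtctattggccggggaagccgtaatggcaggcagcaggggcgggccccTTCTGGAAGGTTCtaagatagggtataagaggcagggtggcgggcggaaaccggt
HSPA1A (chr6:31815293-31815542, plus strand): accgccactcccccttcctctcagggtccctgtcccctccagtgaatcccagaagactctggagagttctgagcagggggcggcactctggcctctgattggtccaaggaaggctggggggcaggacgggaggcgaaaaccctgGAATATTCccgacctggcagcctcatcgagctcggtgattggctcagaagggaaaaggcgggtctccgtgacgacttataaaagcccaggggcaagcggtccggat
HSPA1B (chr6:31827488-31827737, plus strand): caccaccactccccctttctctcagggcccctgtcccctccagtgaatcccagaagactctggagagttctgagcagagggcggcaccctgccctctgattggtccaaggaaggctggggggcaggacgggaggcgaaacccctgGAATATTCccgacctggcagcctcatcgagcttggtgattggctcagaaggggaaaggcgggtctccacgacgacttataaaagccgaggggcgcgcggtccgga
HSPA5 (chr9:125241344-125241593, minus strand): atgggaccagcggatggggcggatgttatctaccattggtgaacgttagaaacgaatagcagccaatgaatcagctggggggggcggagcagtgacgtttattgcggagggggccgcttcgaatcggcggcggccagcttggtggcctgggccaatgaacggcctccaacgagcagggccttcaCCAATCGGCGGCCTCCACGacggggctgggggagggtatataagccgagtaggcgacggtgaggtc

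Of the 10 members, 9 had a promoter window in the RefSeq table, each of 300 bases that run from 250 before to 50 after a start, and HSPA4L had 3 such windows. Motifs were searched on both strands by exact letters, so an element with an imperfect unit was not found. The shorter matches of HSPA1A and HSPA1B therefore do not give the full extent of their heat shock elements. The heat shock element of 3 units, GAANNTTCNNGAA or TTCNNGAANNTTC, occurred 2 times in the HSPA8 window and in no other member's, against 0.49% of 35116 windows of all genes. The 2-unit form, GAANNTTC or TTCNNGAA, which also lies inside every 3-unit match, was present for HSPA8, HSPA1A, HSPA1B, HSPA9 and 1 of the HSPA4L windows, against 13.5% of all windows. The ER stress element (CCAAT, 9 bases of any kind, CCACG) was found in the HSPA5 window, where it began 66 bases before the start, and in 0.0769% of all windows. The upstream stretches of HSPA1A and HSPA1B were 93.6% identical over 251 aligned columns.

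Transcript values are the authors' normalized read counts, with column totals of 34907394 to 35683869 in LACTB libraries and 38049489 to 41384595 in vector libraries. LACTB itself stood at 4183 ± 96.3 normalized counts in LACTB cells and 455 ± 61.4 in vector cells (SD, n = 3 each). Genes averaging at least 37.7 normalized counts (1 CPM of the mean column total) were compared with limma on log2(value + 1), a scale that understates the change of low genes, and a gene was called at an adjusted p under 0.05. All 8 glial and glioma markers looked up were above 0 in every library, with 5 called higher and 2 called lower in LACTB cells. SOX2 averaged 2674 ± 313 in LACTB cells and 1131 ± 146 in vector cells, while S100B averaged 14499 ± 2186 in LACTB cells and 33778 ± 5580.2 in vector cells (SD, n = 3 each). EGFR and GFAP were also called higher and OLIG2 lower. The defining leukocyte genes PTPRC and CD3E and the epithelial gene EPCAM did not exceed 14.6 in any library. The sum of 4 leukocyte markers, mostly CD68, was 1594 to 1697 in LACTB libraries and 1045 to 1175 in vector libraries. The sum of 4 epithelial markers, mostly KRT18, was 2774 to 3256 in LACTB libraries and 5866 to 7161 in vector libraries. The sum of 6 melanocytic and neural crest markers, mostly SOX10, was 41252 to 43317 in LACTB libraries and 48652 to 62480 in vector libraries. TYR was at 0 in all 3 LACTB libraries. All 4 of these markers that were tested were called lower (median log2 difference -1.70), against 24.6% of all tested genes. DCT held 23.4 to 82.0 in LACTB libraries and 1555 to 2071 in vector libraries. MITF held 438 to 537 in LACTB libraries and 1136 to 1512 in vector libraries. The sum of 4 endothelial markers was 163 to 191 in LACTB libraries and 234 to 291 in vector libraries, with KDR at 1.55 to 11.5 in LACTB libraries and 57.6 to 79.8 in vector libraries. The sum of 5 fibroblast and mesenchymal markers was 558 to 719 in LACTB libraries and 744 to 960.5 in vector libraries, and its members differed in both directions, COL1A2 being lower and THY1 higher in every LACTB library. The part of these shifts in the HSP70 values was not tested, and in bulk samples fewer cells of a type and less RNA per cell cannot be told apart.

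Among the 10 members, 1 was called higher and 2 were called lower in LACTB cells, and 7 were not called. All 10 passed the filter, HSPA2 only through its vector values. Over the whole table, 51.9% of the 12939 genes tested were called, 27.4% higher and 24.6% lower, so a call by itself was common. HSPA1A and HSPA1B fell and HSPA4L rose. The groups did not overlap for HSPA1A, HSPA1B, HSPA4L and HSPA5, 4 of 10 members, against 59.7% of tested genes. The median difference of the family was 0.08 and that of all tested genes 0.05 on the log2 scale, LACTB minus vector, and the family median was -0.06 with median centring of the libraries, where that of all genes was -0.09.

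**Figure D1:**
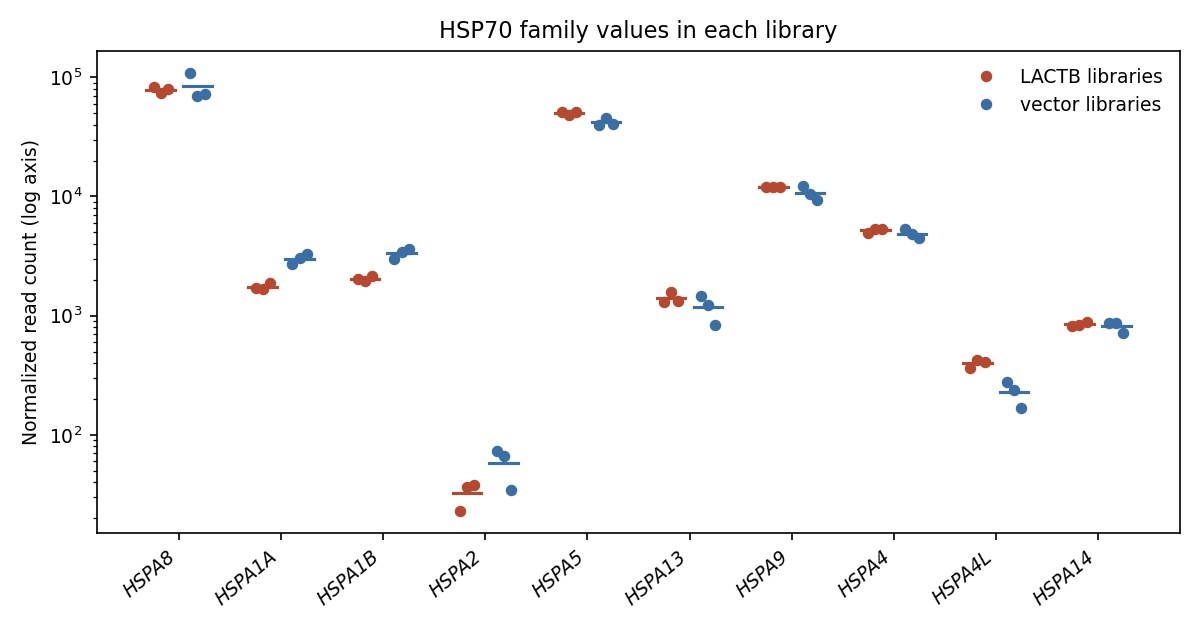
Normalized read count of the 10 HSP70 genes on a log axis, with LACTB libraries left of vector libraries, 1 point per library and a bar at the mean of 3. HSPA1A and HSPA1B lie lower in every LACTB library than in any vector library, HSPA4L and HSPA5 lie higher, and the HSPA8 point at 109358 is vector library 1.

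HSPA8 (chromosome 11, 123057489 to 123063230, minus strand, GRCh38) was the most abundant member and ranked 36th of all symbols by mean value. It held 82179.7, 73947 and 80278 normalized counts in LACTB libraries 1, 2 and 3, against 109358, 70132 and 72814 in vector libraries 1, 2 and 3. The LACTB libraries lay inside the range of the vector libraries, with vector library 1 the highest of the 6 and the other two vector libraries the lowest. The log2 difference was -0.06, with a 95% interval of -0.36 to 0.23 (SE 0.14, limma adjusted p = 0.724). Without vector library 1 the difference was 0.14 (adjusted p = 0.211). It was 0.33 with quantile normalization, where it was called (adjusted p = 0.0226), 0.13 with equal column totals (adjusted p = 0.42), while median centring gave -0.20 (adjusted p = 0.302). As a share of its column, HSPA8 took 0.23%, 0.212% and 0.229% of LACTB libraries and 0.265%, 0.184% and 0.176% of vector libraries. GENCODE annotates 17 pseudogenes of HSPA8, none of which was a row of the table, so the split of reads between HSPA8 and these copies is uncertain. ERBB3, the receptor named with Hsc70 in the study, averaged 14425 ± 1325 in LACTB cells and 14266 ± 1587 in vector cells (SD, n = 3 each).

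The inducible pair was lower in LACTB cells. HSPA1A (chromosome 6, 31815464 to 31817946, plus strand) held 1722, 1661 and 1877 normalized counts in LACTB libraries, against 2726, 3059 and 3266 in vector libraries. HSPA1B (chromosome 6, 31827735 to 31830255, plus strand) held 2029, 1947 and 2137 in LACTB libraries, against 2994, 3409 and 3622 in vector libraries. Every LACTB library was below every vector library for both genes, and the lowest vector value was that of library 1 in each case. The log2 difference was -0.78 for HSPA1A (SE 0.12, adjusted p = 1e-05) and -0.71 for HSPA1B (SE 0.11, adjusted p = 2.7e-05). The ratio of LACTB to vector means was 0.581 for HSPA1A and 0.61 for HSPA1B.

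The pair cannot be read as independent genes. Their longest GENCODE transcripts share an unbroken identical run of 1715 bases out of lengths of 2483 and 2521, so short reads from that run match both. HSPA1A was 0.849, 0.853 and 0.879 of HSPA1B in LACTB libraries and 0.911, 0.897 and 0.902 of it in vector libraries. With both summed as 1 row, the value was 3791 ± 205 in LACTB cells and 6359 ± 592 in vector cells (SD, n = 3 each). The summed row differed by -0.74 (adjusted p = 1.3e-05). The annotated gene AL671762.1 overlaps HSPA1B on the same strand and was not a row of the table, so reads of the overlap are uncertain.

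Both genes consist of 1 exon and have short, GC-rich transcripts, and the table as a whole differed between the groups along transcript length and GC content. A spline fitted to these 2 properties in every library placed a gene of the length and GC of HSPA1A at -0.39, and one like HSPA1B at -0.37, relative to the average gene. After this trend was removed HSPA1A still differed by -0.39 (SE 0.09, adjusted p = 0.00399) and HSPA1B by -0.34 (SE 0.08, adjusted p = 0.00663). The 50 tested genes nearest to HSPA1A on chromosome 6 had a median difference of -0.19 as deposited and 0.09 after the removal.

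HSPA2, a cytosolic member best known for its role in the testis, was the least abundant (chromosome 14, 64535905 to 64546173, plus strand). It held 23.1, 36.4 and 38.0 normalized counts in LACTB libraries, against 73.3, 66.5 and 34.3 in vector libraries. Its mean was 32.5 in LACTB cells and 58.0 in vector cells, so it reached the filter of 37.7 only through the vector values. The groups overlapped, with vector library 3 among the LACTB libraries. The difference of -0.78 had a 95% interval of -1.51 to -0.05 and was not called (SE 0.35, adjusted p = 0.0677). It was called without vector library 3 (-1.11, adjusted p = 0.0221), with median centring (-0.91, adjusted p = 0.0281), with quantile normalization (-0.86, adjusted p = 0.0465), and after the length and GC trend was taken out (-1.08, adjusted p = 0.0188). It was not called with equal column totals (-0.59, adjusted p = 0.179) or without LACTB library 1 (-0.56, adjusted p = 0.239). The value nearest 0 came with a pseudocount of 1 CPM (-0.43, adjusted p = 0.0585), so the size depended on the pseudocount. An annotated antisense gene overlaps HSPA2 and the strand setting is not given in the sources used here, so reads of the pair cannot be told apart.

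The ER forms had higher means in LACTB cells without passing the test. HSPA5 (chromosome 9, 125234853 to 125241330, minus strand) held 50706, 48404 and 50709 normalized counts in LACTB libraries, against 39836, 45668 and 40475 in vector libraries. The groups did not overlap, and the ratio of means was 1.19. The difference of 0.25 had a 95% interval of 0.02 to 0.49 and missed the adjusted threshold (SE 0.11, adjusted p = 0.0671). It was called with equal column totals (0.44, adjusted p = 0.00192), with quantile normalization (0.70, adjusted p = 4.18e-05) and without vector library 2 (0.31, adjusted p = 0.0104). It was 0.12 with median centring (adjusted p = 0.472) and 0.17 after the trend was taken out (adjusted p = 0.0867), not called in either.

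HSPA13, a member of the microsomal fraction that lacks the substrate-binding domain of the family (chromosome 21, 14371115 to 14383484, minus strand), held 1312, 1568 and 1336 in LACTB libraries. Its vector libraries held 1463, 1227 and 837. The vector values spanned a wider range that overlapped the LACTB values, and the difference of 0.29 had a 95% interval of -0.04 to 0.62 (SE 0.16, adjusted p = 0.131). It was called with equal column totals (0.48, adjusted p = 0.0324) and without vector library 1 (0.47, adjusted p = 0.0106), but it was 0.16 with median centring (adjusted p = 0.394), 0.06 without vector library 3 (adjusted p = 0.708) and -0.0006 after the trend was taken out.

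HSPA9, the mitochondrial form (chromosome 5, 138553756 to 138575724, minus strand), held 11924, 12060 and 12043 normalized counts in LACTB libraries, against 12356, 10558 and 9310.3 in vector libraries. The 3 LACTB values lay close together within the range of the vector values, and the coefficient of variation (CV, SD over mean) was 0.618% in LACTB cells and 14.3% in vector cells. GENCODE annotates 1 pseudogene of HSPA9, which was not a row of the table. The difference of 0.17 had a 95% interval of -0.07 to 0.41 (SE 0.12, adjusted p = 0.23). It was called with equal column totals (0.36, adjusted p = 0.0121), with quantile normalization (0.35, adjusted p = 0.0124) and without vector library 1 (0.28, adjusted p = 0.0148), but it was 0.04 with median centring (adjusted p = 0.826), 0.07 without vector library 3 (adjusted p = 0.607) and -0.09 after the trend was taken out (adjusted p = 0.389).

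Of the Hsp110 branch, HSPA4L was called and HSPA4 was not. HSPA4L (chromosome 4, 127781821 to 127840733, plus strand) held 363, 426 and 406 normalized counts in LACTB libraries, against 279, 237 and 167 in vector libraries. Every LACTB library lay above every vector library, with a ratio of means of 1.75. The difference was 0.83 (SE 0.19, adjusted p = 0.0011). HSPA4L has the longest transcript of the members, at 10790 bases, and the length and GC trend alone stood at 0.67 for it. With the trend removed the difference was 0.17 and no longer called (95% interval -0.15 to 0.48, adjusted p = 0.361). The 50 nearest tested genes on chromosome 4 had a median difference of 0.37 as deposited and 0.01 after removal. An annotated antisense gene that is itself a row of the table overlaps HSPA4L.

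HSPA4 (chromosome 5, 133051962 to 133106449, plus strand) held 4974, 5287 and 5303 in LACTB libraries, against 5291, 4848 and 4512 in vector libraries. The groups overlapped through vector library 1, and the difference was 0.09 with a 95% interval of -0.14 to 0.32 (SE 0.11, adjusted p = 0.513). Its direction and call depended on the scaling: it was 0.28 with equal column totals (adjusted p = 0.032) and -0.22 after the trend was taken out (adjusted p = 0.0202). It was -0.04 with median centring (adjusted p = 0.791) and 0.03 without vector library 3 (adjusted p = 0.798).

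HSPA14, which forms the ribosome-associated complex with the J-domain protein DNAJC2, stood on 2 rows. GENCODE holds 2 overlapping genes of this symbol on chromosome 10 (14838164 to 14871741 and 14838160 to 14847018, plus strand), and the table does not say which row is which. The row with the higher mean, used here, held 826, 841 and 894 in LACTB libraries, against 871, 874 and 713 in vector libraries. The other row averaged 220.3 ± 19.2 in LACTB cells and 211 ± 57.8 in vector cells (SD, n = 3 each). Neither row separated the groups, and the difference of the first was 0.07 with a 95% interval of -0.22 to 0.35 (SE 0.14, adjusted p = 0.709). CDNF overlaps both annotated genes on the opposite strand.

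**Figure D2:**
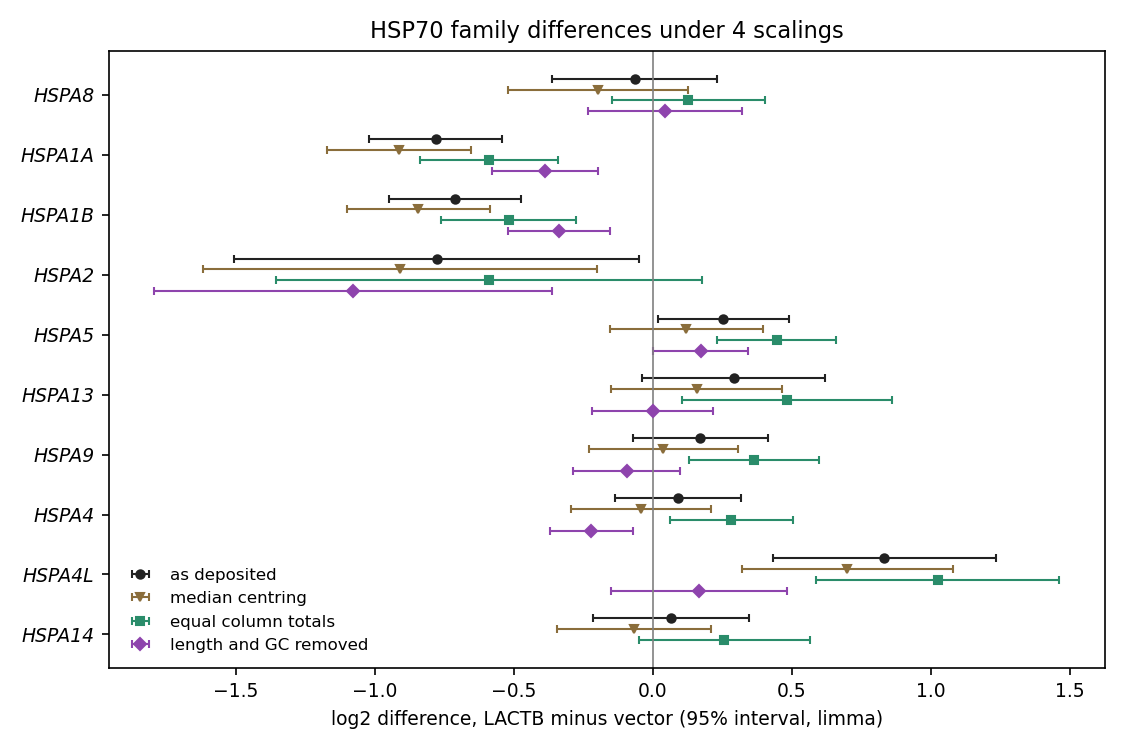
Log2 difference (LACTB minus vector) of the 10 members with its 95% interval from limma, as deposited, with median centring, with equal column totals, and with transcript length and GC removed, the last without HSPA14, whose length is not settled. HSPA1A and HSPA1B stay below 0 under all 4, while HSPA4L lies at 0.83 as deposited and at 0.17 with length and GC removed.

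The number of members called therefore depended on the scaling. With equal column totals 5 were called higher and 2 lower, where 38.4% of all tested genes were called higher and 14.8% lower and the median of all genes moved to 0.24. With quantile normalization 4 were called higher and 3 lower, against 24.8% and 25.5% of all genes. After the length and GC trend was taken out limma called 0 of 9 higher and 4 lower, against 27% and 21.4%, and 1 was higher at an unadjusted p under 0.05. With median centring 1 was called higher and 3 lower, against 20.7% and 32.1%. HSPA1A and HSPA1B were called lower in every alternative run. Without vector library 1 the count of members called higher was 3 (30% of all genes), and without vector library 2 it was 2 (27.2%). Without vector library 3 the count called lower was 3 (21.1%). HSPA2, which reached the filter only through its vector values, was part of each count of 3 or 4 called lower.

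A factor applied to a whole library cancels in a ratio of genes within it, so each member was also set against HSPA8 in the same library. Quantile normalization and the length and GC trend act gene by gene and do not cancel. Under quantile normalization the difference was 0.64 for HSPA4L and 0.33 for HSPA8, and after the trend was taken out it was 0.17 for HSPA4L and 0.04 for HSPA8. The log2 ratio of HSPA1A to HSPA8 was -5.58, -5.48 and -5.42 in LACTB libraries, against -5.33, -4.52 and -4.48 in vector libraries. The LACTB values were all lower, but vector library 1 lay only just above them, since HSPA8 was high there. The ratios of HSPA1A, HSPA1B and HSPA4L did not overlap between groups, with differences of -0.72, -0.65 and 0.90. Each of these 3 gave an exact two-sided permutation p of 0.1, the smallest that 3 against 3 libraries allow, and 0.3 when adjusted over 9 ratios. The other 6 ratios overlapped between the groups, with differences from -0.73 for HSPA2 to 0.36 for HSPA13 and exact permutation p of 0.3 to 0.6. Leaving out single libraries moved these differences widely, between -0.98 and -0.47 for HSPA2, 0.0094 and 0.27 for HSPA4, 0.076 and 0.50 for HSPA5, 0.14 and 0.34 for HSPA9, and 0.22 and 0.52 for HSPA13. The HSPA4, HSPA5 and HSPA9 ratios were lowest without vector library 1, the HSPA2 ratio was nearest 0 without LACTB library 1, and the HSPA13 ratio was lowest without vector library 3. All 5 were farthest from 0 without a vector library, library 3 for HSPA2 and library 2 for the rest. HSPA5 was 0.617, 0.655 and 0.632 of HSPA8 in LACTB libraries and 0.364, 0.651 and 0.556 of it in vector libraries.

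**Figure D3:**
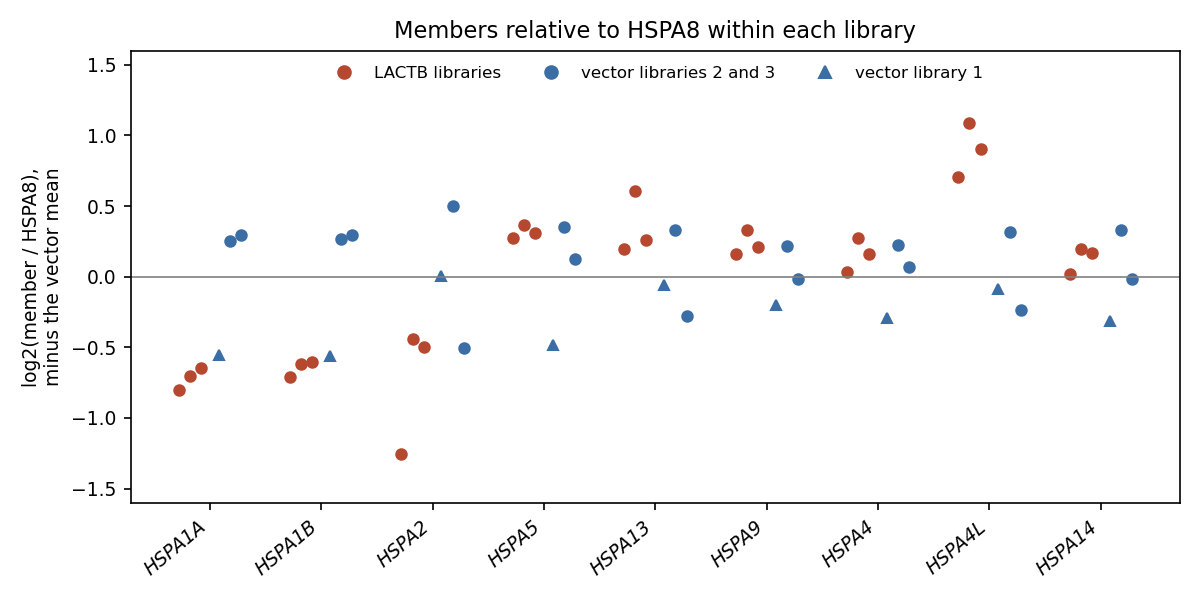
Log2 ratio of each member to HSPA8 within a library, minus the mean of the 3 vector libraries, with LACTB libraries left of vector libraries and vector library 1 drawn as a triangle. HSPA1A and HSPA1B lie lower in LACTB libraries and HSPA4L higher, with vector library 1 of the inducible pair close to the LACTB points.

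Summed over the 10 members, the family took 156060, 146177 and 155020 normalized counts in LACTB libraries, against 175247, 140079 and 135751 in vector libraries. The sums overlapped, with vector library 1 the highest and the other vector libraries the lowest. HSPA8 made up 50.6% to 52.7% of the sum in LACTB libraries and 50.1% to 62.4% in vector libraries. HSPA5 made up 32.5% to 33.1% in LACTB libraries and 22.7% to 32.6% in vector libraries. The inducible pair together took 3608 to 4013 normalized counts in LACTB libraries and 5720.3 to 6889 in vector libraries. Without HSPA8 the sum was 73617 ± 1276 in LACTB cells and 66258 ± 3519 in vector cells (SD, n = 3 each), and these groups did not overlap. Most of this sum was HSPA5, with means of 49940 in LACTB cells and 41993 in vector cells. Of single tested genes, 59.7% did not overlap either.

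Levels of different genes were compared per kilobase of the longest annotated transcript. HSPA8 stood highest at 31994 ± 1750 normalized counts per kilobase in LACTB cells and 34146 ± 8897 in vector cells (SD, n = 3 each). HSPA5 followed at 12779 ± 340 in LACTB cells and 10745 ± 819 in vector cells. HSPA9 was next at 2540.5 ± 15.7 in LACTB cells and 2272 ± 324 in vector cells. With HSPA1A and HSPA1B ranked as separate rows, the fourth to sixth places changed between the groups. Reads from the run they share match both, so these places depend on how such reads were divided. The length and GC trend stood at 0.31 for HSPA4, -0.39 for HSPA1A and -0.37 for HSPA1B, and its part in the change was not tested. In LACTB cells the order was HSPA4 at 1075 ± 38.4, HSPA1B at 808 ± 37.7 and HSPA1A at 706 ± 44.8, while in vector cells it was HSPA1B at 1326 ± 127, HSPA1A at 1215 ± 110 and HSPA4 at 1012 ± 81.1. HSPA13 (353 ± 35.4 in LACTB cells, 295 ± 79.3 in vector cells), HSPA4L (36.9 ± 3.00 in LACTB cells, 21.1 ± 5.23 in vector cells) and HSPA2 (6.02 ± 1.52 in LACTB cells, 10.7 ± 3.85 in vector cells) closed the order. Of neighbours in either order, HSPA1B and HSPA1A overlapped in vector cells, and no other pair did, although the lowest HSPA1A value in vector cells (1098) lay next to the highest HSPA4 value (1097). HSPA14 was left out because its length is not settled, and the longest transcript need not be the one expressed.

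The members varied less between LACTB libraries than between vector libraries. The CV was lower in LACTB cells for 10 of 10 members, and for 78.2% of tested genes. Its median over the members was 5.07% in LACTB cells and 12.8% in vector cells, and over all tested genes it was 7.05% in LACTB cells and 14.1% in vector cells. The widest spread among the 3 most abundant members was that of HSPA8 in vector cells, at 26.1%.

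The genes whose log2 values followed HSPA8 most closely over the 6 libraries were MESD, RNASEH1-AS1, H2AFZ, AC007114.1 and HNRNPC, with Pearson correlations of 0.9925 to 0.9971. Each was highest in vector library 1 and lowest in vector library 2. H2AFZ, which encodes a histone variant, held 17506 to 19407 normalized counts in LACTB libraries, and 26797, 15496 and 16834 in vector libraries 1, 2 and 3. The member closest to HSPA1A was HSPA1B, with a correlation of 0.999. Outside the family the genes closest to HSPA1A were SLC39A4, TSPAN9, PRRT3, TNS1 and ING5, with correlations of 0.9959 to 0.9983. All were lower in every LACTB library than in any vector library, as were 28.7% of tested genes. Both sets were picked for likeness over these 6 libraries, so the patterns they share with HSPA8 or HSPA1A follow from the choice. These correlations describe 6 libraries that share 1 normalization.

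The partners of the family went both ways, as did the whole table. The lists overlap, so a gene can count in several of them. Over all tested genes, 27.4% were called higher and 24.6% lower as deposited (median 0.05). With equal column totals the shares were 38.4% and 14.8% (median 0.24). With median centring they were 20.7% and 32.1% (median -0.09), and with quantile normalization 24.8% and 25.5% (median 0.01). The counts of each list stand beside these shares. J-domain cochaperones, which stimulate the HSP70 ATPase, were called higher in 10 and lower in 5 of 38 tested genes (median 0.03). DNAJC13, which acts on endosomes, rose to 860 ± 157 in LACTB cells, against 341 ± 87.1 in vector cells (adjusted p = 4.04e-06). DNAJC10 and DNAJC3, both of the ER lumen, rose by 1.02 and 0.66 on the log2 scale, and DNAJC10 was no longer called after the trend was taken out (adjusted p = 0.281). The counts were 9 higher and 11 lower with median centring and 13 and 1 with equal column totals.

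Nucleotide exchange factors were called higher in 2 and lower in 4 of 12 cases (median -0.07). BAG1, a cochaperone of HSPA8, fell to 2288 ± 130 in LACTB cells, against 3969 ± 755 in vector cells (adjusted p = 3.61e-05). SIL1, the exchange factor of HSPA5, fell by 0.60 and HSPBP1 by 0.50, and neither was called after the trend was taken out (adjusted p = 0.122 and 0.599). The median of this list was 0.12 with equal column totals.

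Of 21 genes of HSF1 and the heat shock response, members left aside, limma called 10 lower and 0 higher, against 24.6% lower and 27.4% higher over all genes, and 1 was higher at an unadjusted p under 0.05. The list median was -0.17, and 0.02 with equal column totals, which called 8 lower and 4 higher. Of the genes called lower, AHSA1, FKBP4 and STIP1 also count among the HSP90 cochaperones. HSPE1 also counts among the mitochondrial factors, and HSPA6 among the other HSP70-related genes. CRYAB, a small heat shock protein, fell to 584 ± 50.9 in LACTB cells, against 2305 ± 179 in vector cells (adjusted p = 5.48e-11). SERPINH1, the collagen chaperone, fell by 1.08 and the ubiquitin gene UBB by 0.89. UBB has pseudogene copies, so its value is uncertain. The 11 genes of this list not called as deposited differed by -0.17 (HSPB1) to 0.37 (CHORDC1). Of these, the HSF1 targets DNAJB1 and HSPH1 were singled out after their values were seen. They had the largest limma adjusted p of the list, so they do not stand for the other uncalled genes. DNAJB1 averaged 12947 ± 984 in LACTB cells and 13052 ± 1153 in vector cells (SD, n = 3 each). HSPH1, of the Hsp110 branch, averaged 2099 ± 111 in LACTB cells and 2108 ± 72.2 in vector cells (SD, n = 3 each). After the trend was taken out they were called in opposite directions, DNAJB1 at 0.30 (adjusted p = 0.00861) and HSPH1 at -0.41 (adjusted p = 0.00131).

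Among the other HSP70-related genes, HSPA6, an inducible gene absent from rodents, was the 1 of 5 tested that was called lower, and limma called 0 higher, also at an unadjusted p under 0.05. HSPA6 averaged 144 ± 11.2 in LACTB cells and 245 ± 72.6 in vector cells (SD, n = 3 each), a difference of -0.72 (adjusted p = 0.0091). It was not called with equal column totals (adjusted p = 0.071), after the trend was taken out (adjusted p = 0.259) or in the least favourable fit that left out 1 library (adjusted p = 0.0735). HSPA12A and HSPA1L differed by -0.13 and -0.14 without a call, and both differences were positive with equal column totals. After the trend was taken out HSPA12A was called lower (-0.28, adjusted p = 0.0361) and HSPA1L differed by 0.06 without a call.

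HSP90, which receives clients from HSP70, and its cochaperones were called lower in 8 and higher in 1 of 17 tested genes (median -0.19, and -0.0006 with equal column totals). AHSA1, the activator of the HSP90 ATPase, fell to 6575 ± 295 in LACTB cells, against 11111 ± 1332 in vector cells (adjusted p = 1.42e-05). FKBP4 fell by 0.73. STUB1, the ubiquitin ligase CHIP that binds HSPA8 and HSPA1A, fell by 0.69 but was not called after the trend was taken out (adjusted p = 0.0807). Equal column totals gave 6 lower and 5 higher. All 8 genes called lower as deposited were cochaperones. The 1 called higher was an HSP90 gene, HSP90B1, at 0.49 (adjusted p = 0.00165). The HSP90 genes HSP90AA1 and HSP90AB1 differed by 0.34 (adjusted p = 0.0542) and 0.10 (adjusted p = 0.453) without a call. Both were called higher under equal column totals and quantile normalization. Median centring called neither, at 0.21 for HSP90AA1 and -0.03 for HSP90AB1. After the trend was taken out HSP90AB1 was called higher (0.24, adjusted p = 0.0173) and HSP90AA1 was not called (0.27, adjusted p = 0.146).

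ER chaperones and folding factors, partners of HSPA5, were called higher in 8 and lower in 1 of 20 genes (median 0.02). Of the called genes, DNAJC10, DNAJC3, SIL1 and HSP90B1 also count in the lists above. SEL1L, a scaffold of ER-associated degradation, rose to 2441 ± 134 in LACTB cells, against 1070.1 ± 82.1 in vector cells (adjusted p = 4.96e-08). The median was -0.11 with median centring and 0.30 with quantile normalization, which called 12 higher and 1 lower. Mitochondrial import and folding factors, partners of HSPA9, were called lower in 10 and higher in 1 of 18 tested genes (median -0.32). PAM16, a subunit of the import motor, fell to 928 ± 46.2 in LACTB cells, against 1747 ± 187 in vector cells (adjusted p = 4.25e-06). The protease gene LONP1 fell by 0.78 and the co-chaperonin gene HSPE1, which has pseudogene copies, by 0.78. With equal column totals 5 were lower and 4 higher (median -0.13).

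Factors of clathrin uncoating and chaperone-mediated autophagy, the processes in which HSPA8 is best known, were called higher in 3 and lower in 6 of 14 genes (median -0.20, and 0.06 after the trend was taken out). The lysosomal receptor gene LAMP2 rose to 13829 ± 756 in LACTB cells, against 7059 ± 539 in vector cells (adjusted p = 3.42e-07). CLTC, the clathrin heavy chain, rose to 10107 ± 658 in LACTB cells, against 4719 ± 1003 in vector cells (adjusted p = 4.55e-07). Both genes named here rose, while the 6 called lower are not described. With equal column totals 4 of the 14 were called higher and 3 lower. After the trend was taken out 2 were called higher and 2 lower, against 27% and 21.4% of all genes. Of 7 ribosome-associated partners, 2 rose and 1 fell (median 0.38). DNAJC2, the partner of HSPA14, rose to 243 ± 39.7 in LACTB cells, against 145 ± 30.2 in vector cells (adjusted p = 0.00525). SRP72, of the signal recognition particle, rose by 0.42 but was not called with median centring (adjusted p = 0.111) or after the trend was taken out (adjusted p = 0.524), and NACA, which has pseudogene copies, fell by 0.47.

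**Figure D4:**
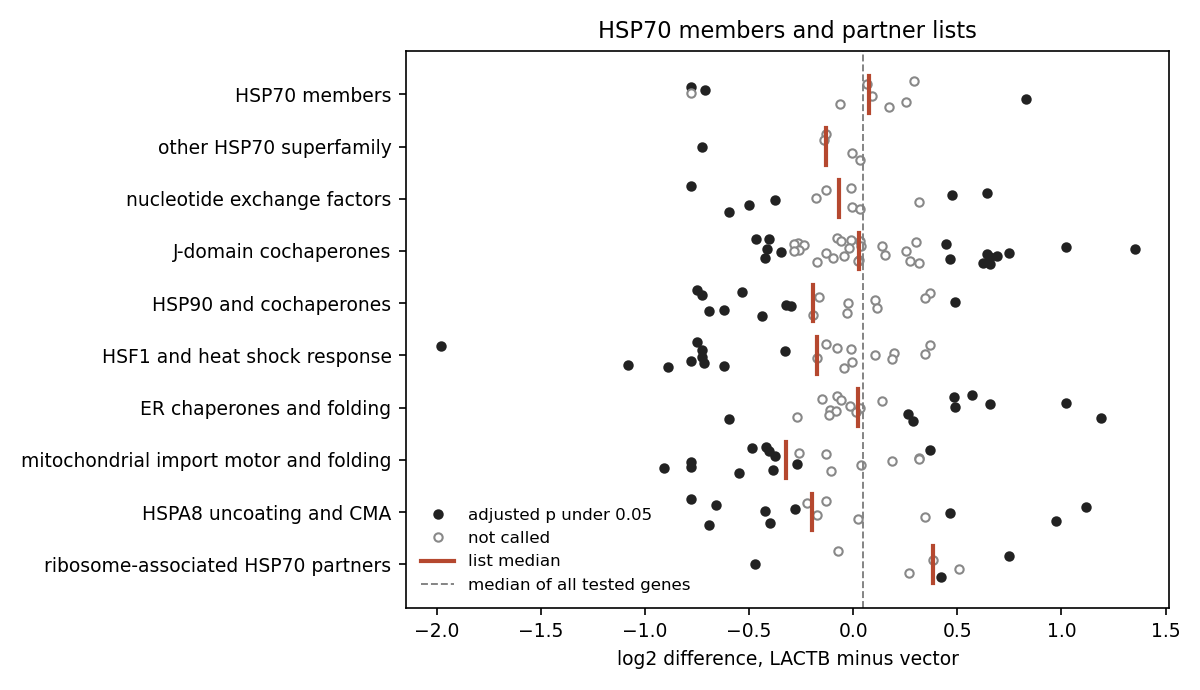
Log2 difference (LACTB minus vector) of each tested gene in the HSP70 family and 9 partner lists as deposited, with filled points for adjusted p under 0.05, a red bar at each list's median and a dashed line at the median of all tested genes, 0.05. CMA stands for chaperone-mediated autophagy. The HSF1 and mitochondrial lists have their called genes mainly below 0, with medians of -0.17 and -0.32, and the ER list has 8 of 9 called genes above 0.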

How the data were processed

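Per the submitters' processing notes, reads were processed with HISAT2 on hg38. For the read counter, annotation, strand setting and normalization, the sources used here give nothing. The authors deposited a table of 24489 rows whose cells are normalized read counts (a signal without a stated scale). Values were not whole numbers. The best single step per library left 36.4% to 64.4% of low values whole (tolerance 0.05, against 10% by chance), so reads were not recovered, no count model was used and the depth is unknown. Symbols above 0 numbered 20494 to 23052 in LACTB libraries and 22530 in each vector library.

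Values below 1e-10 were set to 0. For 9 repeated symbols the row with the higher mean was kept. In R 4.3.3, limma 3.58.1 with its trend and robust options, group as the only term and all 6 libraries was fitted to 12939 genes whose mean reached 1 CPM of the mean column total, on log2(value + 1), two-sided, with Benjamini-Hochberg adjustment. It was tested on simulated data. The design had provided for raw counts or for normalized values, and the second plan was followed. Differences are LACTB minus vector. How far the deposited normalization changed library-to-library spread cannot be read from the table.

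The members, lists and tests were chosen with earlier results of these data known. Named genes are all members, the 3 tested genes with the smallest limma p in each partner list, and the 5 most correlated with HSPA8 and with HSPA1A; not every one is described. Alternatives were other scalings, filters and pseudocounts, limma without trend and robust settings, the replicate number as a block, taking out a length and GC spline (4 degrees of freedom each), HSPA1A and HSPA1B summed, and leaving out each library. Positions, lengths and GC came from GENCODE release 29 (GRCh38), promoters from RefSeq. No protein sequence is shown. Alignments used Biopython 1.88 and figures matplotlib 3.10.9 in Python 3.11.15.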

Additional observations from a re-analysis of the deposited data

How the results depend on the processing

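HSPA1A and HSPA1B were lower and called in every alternative, between -0.91 and -0.39 and between -0.84 and -0.34. HSPA4L was called in all alternatives but length and GC removal (0.17, adjusted p = 0.361). Members called higher numbered 1 as deposited, 5 with equal column totals, 4 with quantile normalization, 0 with length and GC removed, and 1 to 3 when single libraries were left out. Members called lower numbered 2 as deposited, 4 with length and GC removed, and 2 to 3 when single libraries were left out. The HSPA8 difference turned positive with equal column totals (0.13), quantile normalization (0.33) and length and GC removed (0.044), and ranged from -0.18 to 0.14 when single libraries were left out, positive without vector library 1. Directions also turned for HSPA4 with median centring (-0.043) and length and GC removed (-0.22), for HSPA9 (-0.094) and HSPA13 (-0.00062) with length and GC removed, and for HSPA14 with median centring (-0.067) and quantile normalization (-0.064). Leaving out single libraries moved HSPA14 between -0.032 (without vector library 3) and 0.12, and its log2 ratio to HSPA8 between -0.027 (without vector library 1) and 0.30. The cause of these changes was not tested. Deviations from the group mean correlated by 0.0228, 0.182 and 0.00342 between libraries of the same number and by -0.193 to 0.161 between others. The deviations of 3 libraries are tied by their mean, so these values cannot decide whether the numbers pair samples. The numbers were not used in the fit as deposited. With the replicate block 1 member was called higher and 3 lower, HSPA2 being added (adjusted p = 0.047), and 6879 genes were called in place of 6721. HSPA14 could not be fitted with length and GC removed, and HSPA2 fell under the filter at 5 CPM.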
